A study of Mus musculus with 6 samples.

Results

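The genes described here are 10 genes of the endoplasmic reticulum (ER) chaperone system and of the unfolded protein response: Hspa5, Hsp90b1, Pdia4, Pdia6, Calr, Canx, Dnajb9, Herpud1, Xbp1 and Atf6. They were chosen by name for their known function. All 10 of 10 were found in a table of 55367 genes, and all 10 were among the 16976 genes with enough counts to be tested.

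RNA-seq of poly(A) RNA was carried out on cortical neurons of C57BL/6J mice, taken from pups at postnatal day 1 and kept for 2 days in culture. There were 3 libraries from WT mice and 3 from Fmr1-KO mice, which lack FMRP, the RNA-binding protein missing in fragile X syndrome. No agent that stresses the ER is named in the protocols, and all 6 libraries share the papain dissociation and the time in culture. Before plating, the study's methods strained out vessels and clumps and depleted astrocytes (by their ACSA-2 antigen) and myelin with antibody-coated beads. In bulk RNA fewer cells of a type cannot be told apart from less RNA per cell. The labels name no culture, litter or sex, so P-values measure the spread between these libraries.

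Secreted and membrane proteins are threaded into the ER as they are made, and there they are folded, glycosylated and joined by disulfide bonds. When unfolded proteins build up, sensors in the ER membrane start the unfolded protein response: IRE1 (Ern1) cuts the Xbp1 mRNA, PERK (Eif2ak3) slows translation and favours ATF4, and ATF6 travels to the Golgi, where proteases release its transcription factor domain. These routes raise the chaperones, the enzymes of disulfide bond formation and the machinery that sends misfolded proteins back to the cytosol for degradation. Neurons make large amounts of receptors, channels and adhesion proteins, all of which pass through the ER.

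The response acts in part through promoter elements, so the stretches that match them are shown for the members that have them. The ER stress response element (ERSE) is CCAAT and CCACG with 9 bases of any kind between them, where NF-Y binds the first and ATF6 the second, and ERSE-II is ATTGG and CCACG with 1 base between them. Both were searched on both strands of RefSeq promoters of GRCm38.p6, from 250 bases before to 50 after each start. ERSE was in 39 of 32851 promoters (0.119%) and in 5 of the 9 members that had a promoter in the table. ERSE-II was in 12 promoters (0.0365%) and in 1 member, and the bare CCAAT in 37.4%. Pdia4, Dnajb9 and Xbp1 had no match to ERSE or ERSE-II, and Atf6 had no promoter in the table. Each line gives the motif with 10 bases to either side, and the capitals mark its fixed letters:
Hspa5, chr2:34772015-34772053, plus strand: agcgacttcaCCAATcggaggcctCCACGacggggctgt
Hsp90b1, chr10:86705628-86705666, minus strand: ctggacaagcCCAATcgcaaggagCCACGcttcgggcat
Hsp90b1, chr10:86705523-86705561, plus strand: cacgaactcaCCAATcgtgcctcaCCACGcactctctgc
Pdia6, chr12:17266481-17266519, plus strand: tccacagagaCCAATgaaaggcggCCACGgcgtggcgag
Calr, chr8:84847065-84847103, plus strand: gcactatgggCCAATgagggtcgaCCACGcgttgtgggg
Canx, chr11:50325790-50325828, minus strand: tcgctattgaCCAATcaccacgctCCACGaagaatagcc
Herpud1 (ERSE-II), chr8:94386367-94386397, plus strand: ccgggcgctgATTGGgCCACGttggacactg

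Hspa5 carried its match from 65 to 47 bases before the start, on the coding strand, counted from the RefSeq start of the promoter table, which lies after the GENCODE start of the gene given further on. The second match of Hsp90b1 and that of Calr read on the strand opposite to the gene. A match is a description of letters, and binding was not measured.

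The other sequence that matters is in Xbp1. IRE1 removes a short segment from the Xbp1 mRNA, and the reading frame after it then encodes the active transcription factor XBP1s. In GENCODE M21 on GRCm38 the segment is in exon 4, within the coding sequence, from 5524279 to 5524304 of chromosome 11, in 3 of 3 coding transcripts. It is shown in capitals because its 26 bases leave a remainder of 2 after division by 3, which shifts the frame:
Xbp1, chr11:5524269-5524314, plus strand: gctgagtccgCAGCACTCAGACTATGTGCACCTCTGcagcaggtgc

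The counts were summed over a gene's exons, so the cut and the uncut Xbp1 mRNA are 1 value here. The activation of ATF6 by proteolysis leaves no trace in its mRNA count either.

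Depth was even, with totals of 30348556 to 35126207 counts, and mitochondrial genes took 2.51 to 2.67% of each. Chi-square over its degrees of freedom was 2.68 among the WT replicates and 2.88 among those of Fmr1-KO, which is above the counting noise. The targeted gene followed the labels: Fmr1 was at 118, 112 and 109.6 CPM (counts relative to the library total, scaled by the TMM method) in WT and at 54.2, 61.4 and 56.7 CPM in Fmr1-KO, a log2 fold-change of -0.98 (SE 0.04). Its level in Fmr1-KO was well above 0. Single members had 903 to 20103 counts in a library, so counting error alone was 3.33% at the lowest and 0.705% at the highest.

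To compare genes with each other, CPM were divided by exon length. On this scale Calr, the soluble lectin chaperone, stood highest with 173.6 ± 11.3 CPM per kb (SD, n = 3) in WT. Its membrane-bound relative Canx followed with 122.8 ± 4.29 CPM per kb. The HSP70-type chaperone BiP (Hspa5) and the HSP90-type chaperone GRP94 (Hsp90b1) came next, at 96.5 ± 12.9 and 93.5 ± 9.16 CPM per kb, and overlapped each other in both genotypes. These 4 chaperones thus had the highest levels per length of the 10.

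The disulfide isomerases Pdia4 and Pdia6 lay at 59.2 ± 3.39 and 54.3 ± 3.55 CPM per kb in WT. They overlapped in WT, whereas in Fmr1-KO Pdia4 (72.6 ± 0.772 CPM per kb) lay above Pdia6 (57.3 ± 0.981 CPM per kb). Xbp1 at 16.2 ± 2.02 CPM per kb and Herpud1 at 15.1 ± 0.316 CPM per kb overlapped in both genotypes. Dnajb9 was at 11.4 ± 0.721 CPM per kb and Atf6 was lowest at 6.36 ± 0.220 CPM per kb. All other neighbours in this order were apart in both genotypes.

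**Figure D1:**
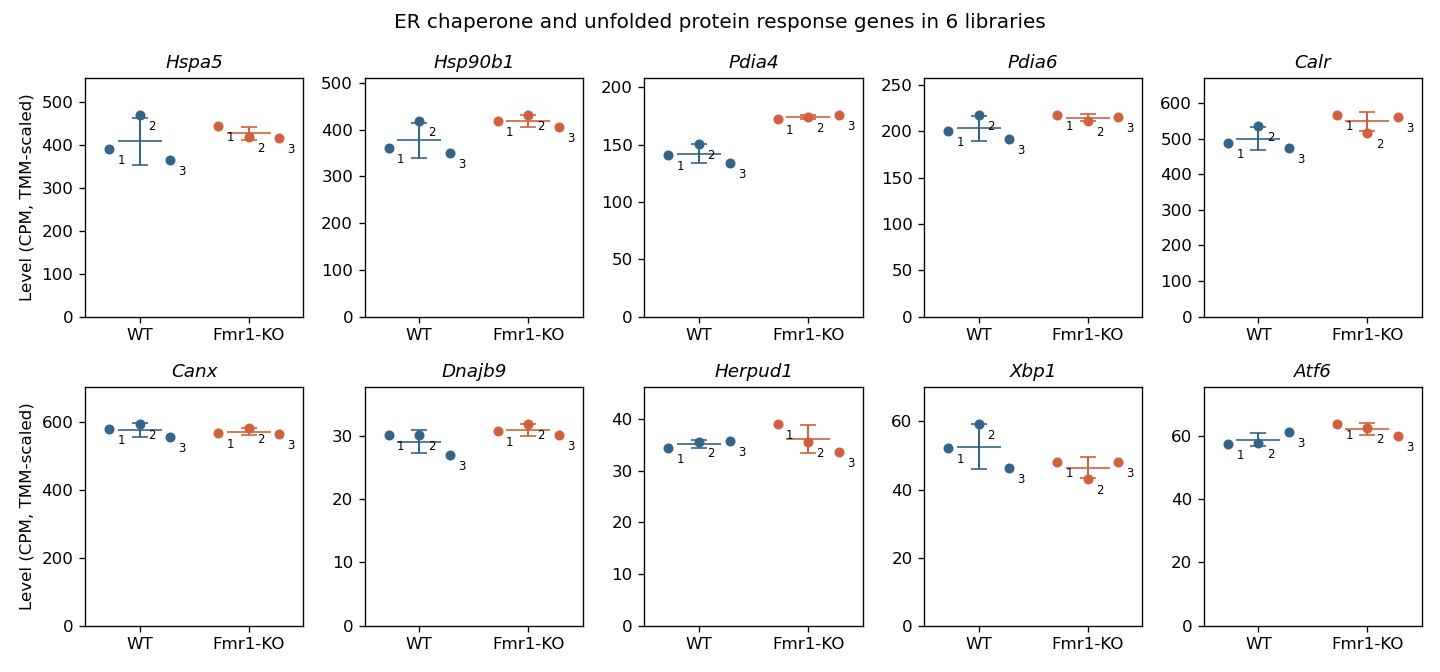
Level of each of the 10 genes in CPM (linear axis from 0, scaled to each gene) in the 3 WT and 3 Fmr1-KO libraries, with a horizontal bar at each genotype's mean, error bars of 1 SD and the replicate number at each point. Pdia4 is the gene whose Fmr1-KO points (172 to 176 CPM) lie wholly above its WT points (134 to 150.4 CPM), and Hspa5 shows the widest WT points, from 365 to 469 CPM.

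Compared with WT, 3 of the 10 genes were higher in Fmr1-KO (Pdia4, Hsp90b1 and Calr), 1 was lower (Xbp1), and 6 did not pass the threshold, an adjusted P under 0.05 by edgeR. Across all tested genes, 42.6% were called, 20.7% higher and 21.9% lower, so 4 of 10 is close to the share among all genes. The median log2 fold-change of the members was 0.08, beside 0.01 for all genes tested. Genotypes did not overlap in 1 of the 10 members, with Fmr1-KO above, and in 51.7% of all genes, made up of 25.4% with Fmr1-KO above and 26.3% below.

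The members' counts moved with the libraries and the scaling. Without WT replicate 2, 5 members were higher and 0 lower (19.2% and 20.7% of all genes). Without WT replicate 1 the counts were 1 and 0 (17.3% and 19.2%), without WT replicate 3 they were 1 and 1 (17.2% and 19.4%), and without Fmr1-KO replicate 2 they were 2 and 0 (17.8% and 20.1%). Library totals alone, in place of TMM scaling, gave 5 and 0 (24.8% and 18.9%). DESeq2 gave 1 and 0 (16.5% and 19.7%), and a test for changes above 1.2-fold gave 0 and 0 (5.2% and 7.89%). Pdia4 was called higher in all of these but the last.

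Pdia4 is a disulfide isomerase of the ER lumen that also helps to hold nascent proteins. It lies on the minus strand of chromosome 6, from 47796141 to 47813430. It had 141, 150.4 and 134 CPM in the WT libraries and 172, 174 and 176 CPM in the Fmr1-KO libraries. Every Fmr1-KO library lay above every WT library. The log2 fold-change was 0.30 (SE 0.04), a rise of 22.7%, with an edgeR adjusted P of 1.09e-06. Under a test that requires a change of more than 1.2-fold it was not called (adjusted P 0.343).

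Pdia6, which restores disulfide-bonded proteins and also acts on the IRE1 sensor, was at 200.5, 218 and 192 CPM in WT and 218, 211 and 215 CPM in Fmr1-KO. Its gene is on the plus strand of chromosome 12, from 17266545 to 17284770. The 3 Fmr1-KO values fell inside the WT range or at its top. The log2 fold-change was 0.08 (SE 0.04, edgeR adjusted P 0.107).

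Hspa5 encodes BiP, the chaperone that holds IRE1, PERK and ATF6 inactive until it is drawn away by unfolded proteins, and its mRNA is a standard readout of the response. Its gene is on the plus strand of chromosome 2, from 34771970 to 34777547. It had 389.8, 469 and 365 CPM in WT and 444, 419 and 416 CPM in Fmr1-KO. The Fmr1-KO libraries all lay between the lowest and the highest WT library. The log2 fold-change was 0.06 (SE 0.06, edgeR adjusted P 0.403), or 4.48%. Without WT replicate 2 it was 0.18 (adjusted P 0.000596), and without WT replicate 3 it was -0.01 (adjusted P 0.887).

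Hsp90b1 encodes GRP94, which folds Toll-like receptors, integrins and insulin-like growth factors. It lies on the minus strand of chromosome 10, from 86690209 to 86705509. It had 361, 419 and 351 CPM in WT and 418, 432 and 405 CPM in Fmr1-KO. WT replicate 2 lay among the Fmr1-KO libraries and the other WT libraries below them. The log2 fold-change was 0.15 (SE 0.05, edgeR adjusted P 0.0124). Its adjusted P was 0.0866 without WT replicate 1, 0.0971 without WT replicate 3, 0.0548 without Fmr1-KO replicate 2, and 0.174 with DESeq2.

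Calr and Canx hold glycoproteins that carry a single terminal glucose while they fold, and Calr also buffers calcium. Calr lies on the minus strand of chromosome 8, from 84841850 to 84846934, and Canx on the minus strand of chromosome 11, from 50293961 to 50325673. Calr had 489, 537 and 475 CPM in WT and 567, 517 and 561 CPM in Fmr1-KO. Fmr1-KO replicate 2 lay within the WT range and the other Fmr1-KO libraries above it. The log2 fold-change of Calr was 0.13 (SE 0.04, edgeR adjusted P 0.0114). The adjusted P was 0.0642 without WT replicate 1, 0.0847 without WT replicate 3, 0.0721 without Fmr1-KO replicate 1, and 0.132 with DESeq2.

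Canx had 578, 595 and 555 CPM in WT and 568, 583 and 565 CPM in Fmr1-KO, all 3 of the latter inside the WT range. Its log2 fold-change was -0.01 (SE 0.03, edgeR adjusted P 0.816), the smallest in size of the 10. Without WT replicate 2, with library totals alone or with upper-quartile scaling its sign was positive, at no more than 0.02.

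Dnajb9 (ERdj4), a J-domain partner of BiP that helps BiP to bind IRE1, was at 30.2, 30.3 and 27.1 CPM in WT and 30.8, 32.0 and 30.3 CPM in Fmr1-KO. Its gene is on the minus strand of chromosome 12, from 44205559 to 44210326. The lowest Fmr1-KO library met the highest WT library. Its log2 fold-change was 0.09 (SE 0.05, edgeR adjusted P 0.2).

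Herpud1, a membrane protein of the complex that sends misfolded proteins to degradation, was at 34.3, 35.5 and 35.6 CPM in WT and 39.1, 35.6 and 33.6 CPM in Fmr1-KO. Its gene is on the plus strand of chromosome 8, from 94386438 to 94395377. Here the Fmr1-KO libraries spread to both sides of WT. The log2 fold-change was 0.04 (SE 0.05, edgeR adjusted P 0.604), and -0.02 without Fmr1-KO replicate 1.

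Xbp1 encodes the transcription factor that acts on folding and degradation genes once its mRNA has been cut. Its gene is on the plus strand of chromosome 11, from 5520659 to 5525893. It had 52.2, 59.3 and 46.3 CPM in WT and 48.1, 43.0 and 48.2 CPM in Fmr1-KO. WT replicate 3 fell among the Fmr1-KO libraries and the other WT libraries lay above them. Its log2 fold-change was -0.18 (SE 0.06, edgeR adjusted P 0.0328), a fall of 11.7%. The value was -0.08 without WT replicate 2 (adjusted P 0.261), -0.18 without WT replicate 1 (adjusted P 0.066), and -0.13 without Fmr1-KO replicate 2 (adjusted P 0.162). It was -0.15 with library totals alone (adjusted P 0.0679) and -0.18 with DESeq2 (adjusted P 0.228).

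Atf6 encodes the sensor that is itself a transcription factor precursor. It lies on the minus strand of chromosome 1, from 170704674 to 170867771. It had 57.5, 57.5 and 61.0 CPM in WT and 63.7, 62.5 and 59.8 CPM in Fmr1-KO, with 1 library of each genotype crossing into the other's range. The log2 fold-change was 0.08 (SE 0.04, edgeR adjusted P 0.12), and it was called with library totals alone (0.11, adjusted P 0.0366).

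**Figure D2:**
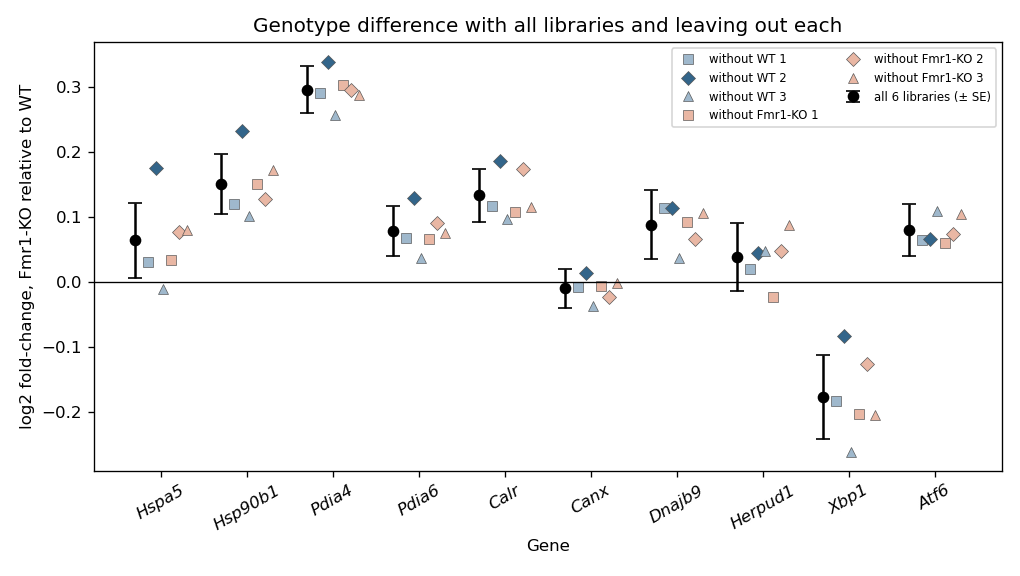
Log2 fold-change of each of the 10 genes, Fmr1-KO relative to WT, with its SE, beside the values obtained when each library in turn is left out (blue for WT, pink for Fmr1-KO). Pdia4 stays between 0.26 and 0.34, while Hspa5 runs from -0.01 to 0.18 and Xbp1 from -0.26 to -0.08.

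Together the 10 genes took 0.233, 0.257 and 0.224% of the counts in WT. Their summed level was 2334, 2571 and 2241 CPM in WT and 2569, 2508 and 2511 CPM in Fmr1-KO. WT replicate 2 had the highest sum of all 6 libraries and WT replicate 3 the lowest. The means were 2382 ± 170.3 and 2529 ± 34.7 CPM (SD, n = 3), a ratio of 1.06, and both means lay within the range of the WT libraries.

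The spread among WT libraries followed an order that most members shared. WT replicate 2 was the highest and WT replicate 3 the lowest of the WT libraries in 8 of the 10 genes, all but Herpud1 and Atf6. The same order was present in 19.4% of all tested genes, and in 20.5% of the 10763 genes that averaged 10 CPM or more. For 9 of the 10 genes, all but Pdia4, the log2 difference between the highest and the lowest WT library was larger than the genotype difference. The share of all genes for which this holds was not counted, so it does not set the members apart.

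Hspa5 had a log2 range of 0.36 over the WT libraries and 0.09 over the Fmr1-KO libraries. Among 2770 genes that averaged 100 CPM or more, the median WT range was 0.06, and 10 of them (0.361%) had a WT range as wide as that of Hspa5, itself included. Hsp90b1 had a WT range of 0.26, and 22 genes (0.794%) were as wide. These chaperones thus varied more between WT libraries than most genes of like abundance, and counting error at the lowest Hspa5 count of 12165 was 0.907%.

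The WT range was 0.18 for Pdia6 and for Calr, with 65 (2.35%) and 75 (2.71%) genes as wide. It was 0.16 for Pdia4, with 101 genes (3.65%) as wide. Canx, with a WT range of 0.10, was closer to other genes, since 499 of them (18%) were as wide. Of the members under 100 CPM, Xbp1 had a WT range of 0.36 and Herpud1 had 0.06, while in Fmr1-KO Herpud1 had the widest range of the 10, at 0.22.

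**Figure D3:**
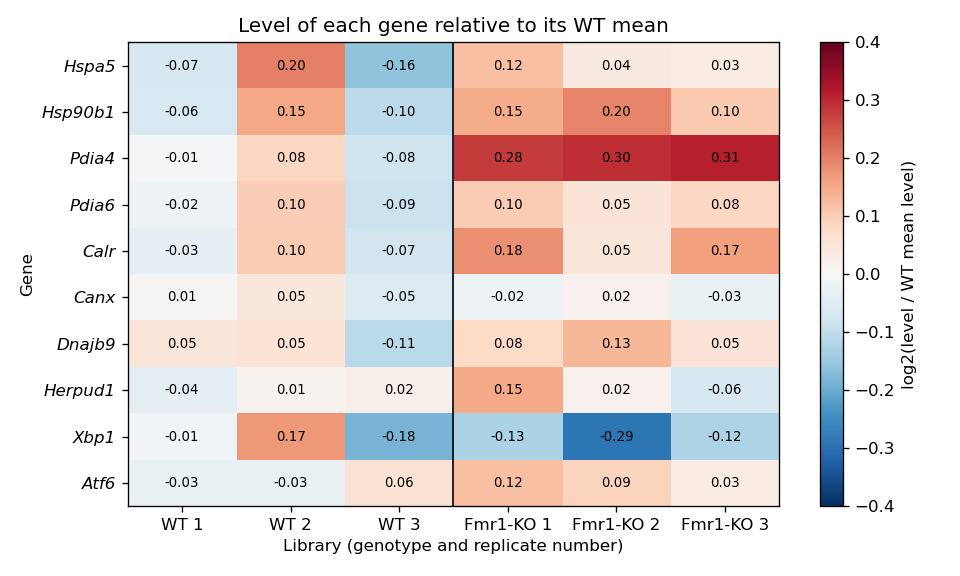
Log2 difference of each library from the mean of the WT libraries for each of the 10 genes, with 1 row per gene and 1 column per library, red for higher and blue for lower. WT replicate 2 is the highest WT library and WT replicate 3 the lowest in 8 of the 10 rows, and the Pdia4 row is higher in all 3 Fmr1-KO libraries.

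Other genes of the system that the response is known to raise were looked at for the same order, after the values had been seen. Creld2, an ER-stress-inducible folding factor, was at 21.0, 26.4 and 20.5 CPM in WT. Hyou1, the exchange factor of BiP, was at 119, 136 and 116 CPM, and Manf, a secreted protein of the ER lumen, was at 71.7, 77.3 and 69.5 CPM. Each had its highest value in WT replicate 2 and its lowest in WT replicate 3, whereas Sdf2l1 had 6.50, 8.62 and 6.68 CPM, with replicate 1 lowest. Over the 129 pathway genes tested, 27 (20.9%) had that order, close to the share in all genes. In the list of cytosolic heat shock proteins it was 8 of 16.

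Members were next set against Hspa5 in the same library. The log2 ratio to Hspa5 did not overlap between genotypes for 2 of 9 members, Pdia4 and Xbp1. Over all genes, 26.2% of 16969 ratios to Hspa5 did not overlap, 9.79% with Fmr1-KO above and 16.4% with Fmr1-KO below. With 3 libraries against 3 the smallest 2-sided exact permutation P is 0.1, so no ratio could pass a threshold of 0.05.

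The log2 ratio of Pdia4 to Hspa5 was -1.47, -1.64 and -1.44 in WT and -1.37, -1.27 and -1.24 in Fmr1-KO, a difference of 0.23 (exact permutation P 0.1, adjusted over 9 ratios 0.45). That of Xbp1 was -2.90, -2.98 and -2.98 in WT and -3.21, -3.28 and -3.11 in Fmr1-KO, a difference of -0.24 (exact permutation P 0.1, adjusted 0.45). The WT libraries spread over a log2 range of 0.36 in the level of Xbp1. In its log2 ratio to Hspa5 they ran from -2.98 to -2.90. Without WT replicate 2 the differences were 0.16 for Pdia4 and -0.26 for Xbp1.

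For the other 7 members the ratios overlapped. Hsp90b1 differed by 0.08 (exact permutation P 0.2), Calr by 0.06 (exact permutation P 0.5) and Canx by -0.08 (exact permutation P 0.5), and Pdia6, Dnajb9, Herpud1 and Atf6 by -0.04 to 0.02 (exact permutation P 0.9 each).

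**Figure D4:**
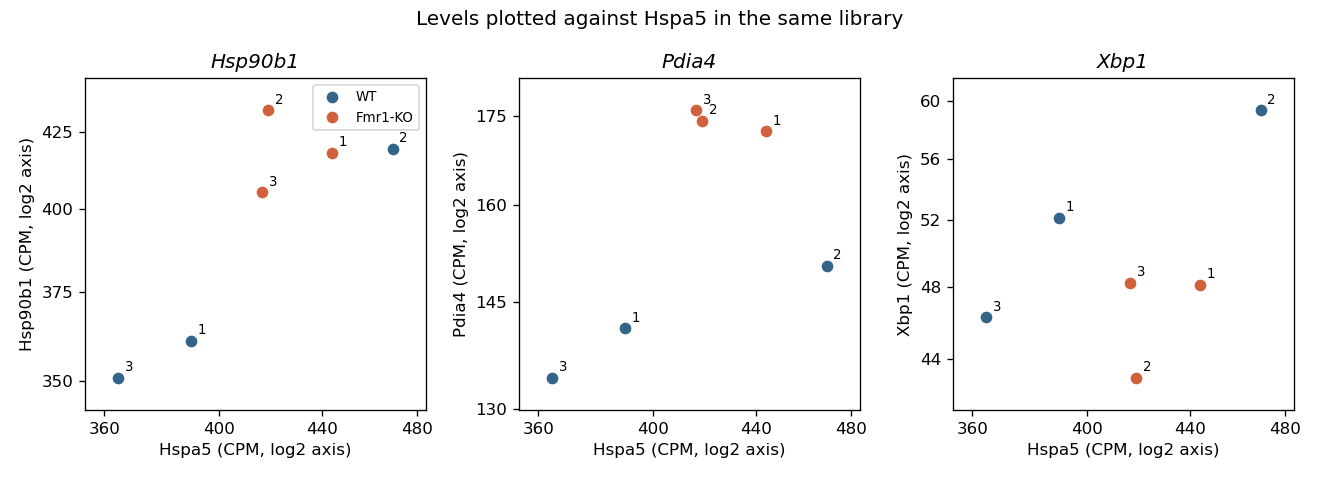
Level of Hsp90b1, Pdia4 and Xbp1 against that of Hspa5 in each of the 6 libraries (CPM, log2 scale on both axes), 1 panel per gene, with the replicate number at each point. WT replicate 2 is farthest to the right, at 469 CPM of Hspa5, and the Fmr1-KO libraries, at 416 to 444 CPM of Hspa5, lie between it and the other WT libraries, above them all for Pdia4.

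The wider pathway was read from 7 lists of ER genes that hold none of the members, with 129 genes tested. Of these, 26 (20.2%) were higher and 18 (14%) were lower in Fmr1-KO, with a median log2 fold-change of 0.01. With library totals alone, 40 were higher and 12 lower, where the shares among all genes were 24.8% and 18.9%. The share called higher was close to that among all genes, 20.7%, and the share called lower was below the 21.9% of all genes.

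Of 13 sensors and transducers tested, 6 were higher and 1 was lower, beside 20.7% and 21.9% of all genes. The median log2 fold-change was 0.07. Creb3l1, an ATF6-related factor linked to secretion and collagen, rose by a log2 fold-change of 0.27 (SE 0.06, edgeR adjusted P 0.0011). The NF-Y subunits Nfya and Nfyc rose by 0.24 and 0.20. Nfyb, another subunit in the list, had 0.05 (edgeR adjusted P 0.319) and was not called. NF-Y binds the CCAAT of ERSE, but its binding was not measured here. Creb3l2, a relative of Creb3l1, fell by 0.20 on the log2 scale. Outside the naming rule, and picked after their values were seen because they are the other ER stress sensors, Ern1 was higher by 0.20 (edgeR adjusted P 0.0147), and Eif2ak3 by 0.19 (adjusted P 0.000503). Ern1 was not called without WT replicate 3 (adjusted P 0.0704) or Fmr1-KO replicate 2 (adjusted P 0.101).

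Of 20 other chaperones and co-chaperones, 7 were higher and 0 lower, beside 20.7% and 21.9% of all genes. The median was 0.08. DESeq2 also called 0 lower, and at an unadjusted P under 0.05 by edgeR the count lower was 1 (Dnajb11, -0.07). Serpinh1, the collagen chaperone HSP47, was at 232, 238 and 225 CPM in WT and 317, 298 and 291 CPM in Fmr1-KO, a log2 fold-change of 0.38 (SE 0.03, edgeR adjusted P 8.01e-09). Fkbp10, a prolyl isomerase that also acts on collagen, rose by 0.20, and Cnpy2 rose by 0.17. Hyou1, with a log2 fold-change of -0.05 (adjusted P 0.416), did not pass the threshold, and neither did Creld2, with 0.18 (adjusted P 0.0644). Without WT replicate 2, its highest WT library, Creld2 had 0.30 (adjusted P 0.00071). It was not called when any other library was left out (edgeR adjusted P 0.0539 to 0.283).

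Of 17 disulfide isomerases and oxidases besides Pdia4 and Pdia6, 3 were higher and 1 was lower, with a median of 0.01. Of the abundant isomerases, P4hb had a log2 fold-change of 0.01 (edgeR adjusted P 0.821) and Pdia3 had -0.05 (adjusted P 0.145). Qsox1, a sulfhydryl oxidase, rose by 0.32, and the membrane-bound thioredoxin-like proteins Tmx3 and Tmx1 by 0.13 and 0.09. Txndc11 fell by 0.23 on the log2 scale. Tmx3 was not called without WT replicate 3 (adjusted P 0.0686) or Fmr1-KO replicate 2 (0.0518), and Tmx1 without replicate 1 (0.0921) or 2 (0.0607) of WT or replicate 3 of Fmr1-KO (0.0988). The list had 2 lower without WT replicate 2, 6 higher with library totals alone and 5 higher with upper-quartile scaling.

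Of 17 genes of glycan addition, trimming and the calnexin cycle, 2 were higher and 3 lower, with a median of 0.02, and with library totals alone 6 were higher and 2 lower. Mlec, the lectin malectin, rose by 0.26 and the cargo lectin Lman2 by 0.09. The glucosidase Mogs fell by 0.18 on the log2 scale, and the oligosaccharyltransferase subunits Rpn1 and Rpn2 fell by 0.13 and 0.10. Lman2 was not called without replicate 1 (adjusted P 0.115) or 3 (0.201) of WT or replicate 1 (0.133) or 3 (0.159) of Fmr1-KO, which left 1 higher in 3 of these 4 cases, and Mogs was not called without Fmr1-KO replicate 1 (0.0652).

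Of 24 genes of ER-associated degradation besides Herpud1, 1 was higher and 6 were lower, with a median of -0.05. Derl1, a channel-like component, rose by 0.16. Edem1, which hands misfolded glycoproteins on for degradation, fell by 0.23 on the log2 scale (edgeR adjusted P 6.91e-05), the ubiquitin-conjugating enzyme Ube2j1 fell by 0.18 and Selenos fell by 0.17. The list had 2 higher and 6 lower without WT replicate 2 or with upper-quartile scaling, and 3 higher and 4 lower with library totals alone.

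Of 23 genes of the translocon, its targeting and the signal peptidase, 0 were higher and 5 lower, beside 20.7% and 21.9% of all genes. The median was -0.02 (0.01 with library totals alone). DESeq2 also called 0 higher, and at an unadjusted P under 0.05 by edgeR the count higher was 1 (Spcs3, 0.10). The count lower was 2 without WT replicate 1, 3 without Fmr1-KO replicate 2, 3 with DESeq2 and 2 with library totals alone, where 1 was higher. The signal peptidase subunit Sec11c was at 37.3, 37.3 and 39.0 CPM in WT and 28.6, 30.3 and 30.9 CPM in Fmr1-KO, a log2 fold-change of -0.34 (SE 0.05, edgeR adjusted P 6.31e-06). Sec61a2 fell by 0.14 on the log2 scale and Ssr4 fell by 0.12. Ssr4 was not called without replicate 1 (adjusted P 0.0999) or 3 (0.0884) of WT or replicate 2 (0.0996) or 3 (0.0722) of Fmr1-KO.

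In the PERK-ATF4-CHOP arm, 7 of 15 genes were higher and 2 lower, beside 20.7% and 21.9% of all genes. The median was 0.17, and 4 were higher without Fmr1-KO replicate 1. Of the genes called higher, Trib3, Chac1, Nupr1 and Tnfrsf10b averaged under 10 CPM, as did Atf3, called lower. With a filter at 10 counts and 5 CPM on average, the median was 0.11 and 5 were higher. Ddit4 (REDD1), an inhibitor of mTORC1, was at 57.0, 67.6 and 61.4 CPM in WT and 88.3, 82.7 and 79.3 CPM in Fmr1-KO, a log2 fold-change of 0.43 (SE 0.05, edgeR adjusted P 6.1e-07). Sesn2, which senses amino acids, rose by 0.22. Asns, the asparagine synthetase that ATF4 activates, moved the other way, from 98.9, 102 and 101 CPM to 76.3, 75.8 and 73.4 CPM, a log2 fold-change of -0.43 (SE 0.03, adjusted P 2.3e-09). Genes of this list thus moved in both directions, and the activity of ATF4 was not tested.

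Atf4 itself had a log2 fold-change of 0.05 (edgeR adjusted P 0.251), and Ddit3, which encodes CHOP, had 0.20 (adjusted P 0.0538). Among ATF4 and CHOP targets under 10 CPM, picked after their values were seen, Trib3 rose from 2.79, 3.18 and 2.64 CPM to 5.90, 5.91 and 3.62 CPM, a log2 fold-change of 0.83 (adjusted P 0.000212). Chac1 rose by 0.39 and Atf3 fell by 0.40 on the log2 scale. Chac1 was not called without Fmr1-KO replicate 1 (adjusted P 0.0634).

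Cytosolic heat shock proteins belong to the response of the cytosol and not to that of the ER. Of 16, 0 were higher and 4 lower, beside 20.7% and 21.9% of all genes, with a median of -0.05. The count higher was also 0 with DESeq2 and at an unadjusted P under 0.05 by edgeR. Hsph1 fell by 0.18 on the log2 scale, Dnaja1 fell by 0.10 and Hsp90ab1 fell by 0.09. Without WT replicate 2, 1 was higher and 2 were lower, and with library totals alone 1 was lower. Dnaja1 was not called without WT replicate 2 (adjusted P 0.0628) or Fmr1-KO replicate 3 (0.0579).

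**Figure D5:**
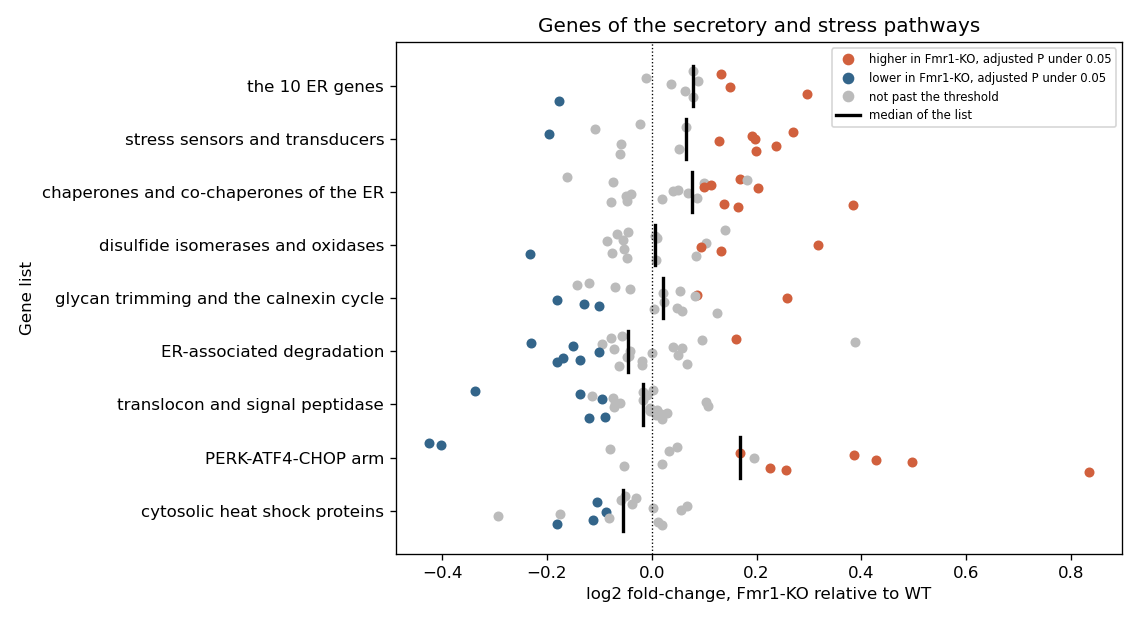
Log2 fold-change of every tested gene in the 10 members, the 7 ER lists and the cytosolic heat shock list, Fmr1-KO relative to WT, 1 point per gene, with genes called higher in orange, called lower in blue and the others in grey, and a bar at each median. The PERK-ATF4-CHOP arm has the highest median (0.17, or 0.11 with a filter at 10 counts and 5 CPM on average) and the widest scatter. The translocon list has 0 called genes above 0.

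The promoter motifs define a second grouping, set after the data were seen. Of 21 tested genes with an ERSE, 5 of them members, 7 were higher and 2 lower in Fmr1-KO. The shares among all genes were 20.7% and 21.9%. The median log2 fold-change of the 21 was 0.10. Among the 16 that are not members, 5 were higher and 2 lower, with a median of 0.12. Of these called genes, the ER lists hold Dnajc3 (0.10, edgeR adjusted P 0.0174), a co-chaperone of BiP, and Syvn1 (-0.14, adjusted P 0.0192), the ubiquitin ligase HRD1. The other called genes are in none of the ER lists. Hnrnpa3 (0.186), Pan2 (0.304), Zfp57 (0.253) and Xlr3b were higher, and Adcy3 (-0.271) was lower. Xlr3b averaged only 0.771 CPM. Derl3, Tdrd9, Gm6566 and Calr4, which were not called, averaged 0.421 to 1.07 CPM and also enter the median. The calls and the median are thus not those of ER genes alone. Dnajc3 was not called without WT replicate 3 (adjusted P 0.0654), nor Syvn1 without replicate 2 (0.0632) or 3 (0.0732) of WT or replicate 3 of Fmr1-KO (0.105). Without WT replicate 2, 10 of the 21 were higher and 1 was lower (19.2% and 20.7% of all genes). That library was the highest of WT in at least 11 of the 21, so its omission raises their fold-changes by construction. No other omission was counted for this grouping. WT replicate 2 was highest and WT replicate 3 lowest in all 5 members with an ERSE and in 6 of the other 16. These 5 are among the 8 members already described with that order, which was present in 19.4% of all tested genes. Of 9 tested genes with an ERSE-II, Herpud1 among them, 2 were higher and 1 was lower, and the median was -0.02.

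The genes whose profile over the 6 libraries was most like that of Hspa5 were sought among 10762 other genes that averaged 10 CPM or more, by the root-mean-square difference of centred log2 CPM. Among the nearest were Supt3 (0.0291), Pex6 (0.0295), Pcyox1l (0.0305) and Zfp612 (0.0394). Of the members, Pdia6 ranked 28, Hsp90b1 45, Calr 94, Dnajb9 419, Canx 758 and Herpud1 1985. Atf6 ranked 3976, Xbp1 4344 and Pdia4 4348. The genes nearest to Herpud1 were Snrpa (0.0161), Rnf8 (0.0244), Ciao2b (0.0248), 1810037I17Rik (0.0272) and Fads3 (0.0292), and Atf6 ranked 190. With 6 libraries, likeness of this kind is a description.

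Markers of cell types moved with genotype, including those of the cells that were depleted before plating. Of 8 neuronal markers 7 were lower and 1 higher, with a summed level of 4468 to 4564 CPM in WT and 3851 to 4040 CPM in Fmr1-KO. The defining neuronal markers were present in every library, which does not show that the values come from neurons alone. The highest astrocyte marker, Gfap, averaged 2473 CPM, and the highest neuronal marker, Dcx, averaged 1289 CPM. All 8 markers of proliferating cells were higher (442 to 493 CPM in WT and 780 to 866 CPM in Fmr1-KO), as were 4 of 7 progenitor markers and 4 of 5 choroid plexus markers (1041 to 1098 CPM in WT and 1440 to 1741 CPM in Fmr1-KO). All 8 oligodendrocyte-lineage markers were lower (1884 to 2046 CPM in WT and 1075 to 1159 CPM in Fmr1-KO), and so were 6 of 8 microglial markers (138 to 155 CPM in WT and 90.6 to 98.2 CPM in Fmr1-KO).

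Of the remaining lists, endothelial and mural markers had 4 higher and 2 lower of 7, fibroblast markers 1 higher and 4 lower of 6, and astrocyte markers 2 higher and 4 lower of 8 (5090 to 5211 CPM in WT and 4488 to 4861 CPM in Fmr1-KO). Excitatory markers had 4 higher and 3 lower of 7, and interneuron markers 3 higher and 3 lower of 6. Erythroid markers had 0 higher and 2 lower of the 2 tested. These counts hide shifts of unlike size. In log2 fold-change, Slc17a7 had -2.45 (a mean of 20.2 CPM in WT and 3.69 CPM in Fmr1-KO). The largest rise among excitatory markers was 0.22 (Neurod2). Among interneuron markers Slc32a1 had -0.53 and Dlx2 had 0.59. The neuronal marker Nefl had -1.90, and the progenitor marker Eomes had 2.79, from 10.5 to 72.8 CPM. No listed marker was at 0 in all libraries. Xist, the X-inactivation RNA, was at 298 to 312 CPM in WT and 825 to 1017 CPM in Fmr1-KO. The labels do not give the sex of the pups, so a difference in the share of female cells cannot be told apart from genotype in any comparison here. The part of these shifts in the values of Pdia4, Hsp90b1, Calr, Xbp1 and the pathway lists was not tested.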

How the data were processed

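RNA was measured in 6 libraries, 3 WT and 3 Fmr1-KO, grouped and numbered as labelled. What the authors deposited is a table of raw, unnormalized counts. By their methods, single-end reads of a stranded poly(A) library were trimmed with FastP, aligned to GRCm38.p6 with STAR and counted over exons by featureCounts (reverse-stranded), with exons of 1 gene name added up. The submitters' processing notes name STAR 2.7.6a and Subread 2.0.1, and the study's methods name an earlier Subread release. Such counts do not separate isoforms, nor spliced from unspliced Xbp1.

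The test was the quasi-likelihood test of edgeR 4.0.16 in R 4.3.3, fitted on the whole table after filterByExpr and TMM scaling, 2-sided, on genotype alone. P-values were adjusted by Benjamini-Hochberg over 16976 genes and called under 0.05. SE is the log2 fold-change divided by the square root of F. The common biological coefficient of variation was 3.22%. Ratios to Hspa5 were compared by exact permutation (scipy 1.17.1). Exon lengths, positions and the Xbp1 transcript came from GENCODE M21, and promoters from RefSeq, with 9 of 10 members matched. Alternatives were DESeq2 1.42.0, RLE and upper-quartile scaling, library totals alone, a replicate block, a filter at 10 counts and 5 CPM on average or none at all, a minimum fold change of 1.2 and leaving out each library. The fit was tested on simulated data.

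The members and gene lists were chosen with earlier results of these data known. From each pathway list the text names called genes that averaged 10 CPM or more and did not overlap between genotypes, at most the 3 largest rises and 3 largest falls. For Hspa5 and Herpud1 it names the 5 genes nearest in profile, of which 1 is not reported here. Genes named outside this rule are marked as such or stand for known roles.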

Additional observations from a re-analysis of the deposited data

How the results depend on the processing

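Of the alternatives, RLE scaling, the stricter filter and no filter changed no member's call. Leaving out 1 library at a time gave log2 fold-changes of -0.0119 to 0.175 for Hspa5, 0.10 to 0.23 for Hsp90b1, 0.26 to 0.34 for Pdia4, 0.0366 to 0.129 for Pdia6, 0.10 to 0.19 for Calr, -0.0372 to 0.0126 for Canx, 0.0357 to 0.11 for Dnajb9, -0.024 to 0.0868 for Herpud1, -0.26 to -0.0832 for Xbp1 and 0.06 to 0.11 for Atf6. It gave 1 to 5 members higher and 0 to 1 lower, 2969 to 3307 genes higher and 3300 to 3569 lower over all genes, 21 to 31 pathway genes higher and 15 to 19 lower, and a ratio of summed levels of 1.03 to 1.11.
With library totals alone the values were 0.11 for Pdia6 and Atf6, now called, -0.15 for Xbp1, no longer called, and 0.0175 for Canx, and 5 members were higher and 0 lower, as were 40 pathway genes. Upper-quartile scaling gave 0.00044 for Canx. With DESeq2 the calls of Hsp90b1 (0.15), Calr (0.13) and Xbp1 (-0.18) were lost, leaving 1 member higher and 0 lower. Under a minimum fold change of 1.2, Pdia4 (0.30), Hsp90b1 (0.15), Calr (0.13) and Xbp1 (-0.18) were not called, 0 members were higher or lower, and the counts were 883 higher and 1340 lower over all genes and 4 higher and 1 lower in the pathway lists. That alternative tests for a larger change by construction. For the others the cause was not tested. Hyou1 ran from -0.0938 to 0.0219 and Sdf2l1 from -0.189 to 0.0614 over the libraries left out, both positive without WT replicate 2.
Deviations of libraries with the same replicate number correlated at -0.03, 0.03 and -0.01, so no clear pairing by number was seen. The libraries numbered 2 were each other's best match, those numbered 1 and 3 were not. Values this near 0 cannot show that the samples were unpaired. The replicate block called 3488 genes higher and 3694 lower, 3 members higher and 1 lower, and 25 pathway genes higher and 18 lower.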
